A study of Bos taurus with 8 samples.

Results

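The death receptor FAS, the initiator caspase CASP8, the BCL2 family genes MCL1, BCL2A1, BCL2L11, BAX and BAK1, and the apoptosome scaffold APAF1 were followed in PMNL, blood polymorphonuclear leukocytes that are mostly neutrophils, of dairy cows around calving. Features (array spots) were matched by the platform's gene symbol and kept when they had a value on at least 6 of 8 arrays, and features of 1 symbol were averaged. All 8 genes were measured on all 8 arrays, out of 9781 symbols measured in the series. They were represented by 17 features, of which 16 were used. A dim BAX feature with values on 3 arrays was left out.

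PMNL came from 8 Holstein cows, 4 on a dry-period diet labelled M and 4 on one labelled S, bled at day -14 and day +7 relative to calving. The labels describe a diet high in wheat straw (CON, 1.34 Mcal/kg) that met at least 100% of the energy need and one based on corn silage (OVE, 1.62 Mcal/kg) that gave over 140% of it, both for a dry period of 45 days, without saying which of them is M and which is S. All cows received a common lactation diet after calving, so at day +7 the groups differed in the diet they had eaten before it. The 16 RNA samples were paired on 8 Agilent 2-colour bovine arrays, 2 arrays for each of 4 pairings: the diets at day -14, the diets at day +7, the days in diet M and the days in diet S. The dyes were exchanged within each pairing. In diet M each day array held both days of 1 cow, and in diet S it held 2 different cows. All values are log2 ratios that are positive where diet M exceeds S, or where day +7 exceeds day -14, if the deposited ratio has Cy5 on top. The labels do not state that direction. With Cy3 on top throughout, every sign below turns, while sizes, standard errors (SE) and p-values stay.

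Neutrophils are short-lived cells whose number in tissue is held down by programmed death. In the extrinsic route, FAS on the cell surface recruits the adaptor FADD and activates caspase-8. In the intrinsic route, BH3-only proteins such as BIM (the product of BCL2L11) release BAX and BAK1 from pro-survival proteins such as MCL1 and BCL2A1. BAX and BAK1 then open the mitochondrial outer membrane, and released cytochrome c assembles with APAF1 into the apoptosome, which activates caspase-9.

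FAS, MCL1 and BCL2L11 were the genes of the 8 that stood furthest from 0, and they did so between the diets at day +7. FAS was at 2.92 ± 0.39 (SE, 8 arrays), a ratio of 7.58, BCL2L11 at 2.47 ± 0.52, a ratio of 5.55, and MCL1 at 1.36 ± 0.29, a ratio of 2.56. A receptor and a BH3-only protein that promote death thus had the same sign as a protein that blocks it. BAX, BAK1, BCL2A1 and CASP8 lay between -0.31 and -0.12 in that comparison. None of the 8 genes passed the test in any comparison (limma, Benjamini-Hochberg over all rows, threshold 0.05).

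The arrays gave values for 27679 to 32580 features. The model over all 8 arrays, with a term for dye, tested 15700 rows in 5 comparisons. No row passed in any of them, which is a background of 0% for adjusted calls in each, and the smallest adjusted p ran from 0.114 for the diets at day +7 to 0.999 for the days in either diet. Below an unadjusted p of 0.05 lay 934 rows for the diets at day -14, 3625 for the diets at day +7, 497 for the days in diet M, 756 for the days in diet S and 1009 for the interaction of diet and day. The number of arrays limits the precision, and p-values reflect only the spread among the 8 arrays. Array 2 of the day +7 diets had the widest log ratios, with a standard deviation of 1.52 over rows against 0.73 to 1.05 on the other 7 arrays, and all arrays had equal weight. Of 12 neutrophil markers 9 were measured. The brightest features of S100A12, S100A9, S100A8, NCF1, CXCR1 and MMP9 had a median brightness of 483 to 41100, above the upper quartile of 364 over all features, while LTF was at 90.1, CXCR2 at 61.3 and ITGAM at 36.7, near or below the median of 87.3. In these bulk samples, fewer cells of a type and less RNA per cell cannot be told apart.

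FAS, the death receptor, had the same sign on both arrays of every pairing. On the diet arrays it read 1.11 and 0.97 at day -14, and 1.64 and 3.94 at day +7. On the day arrays it read 0.49 and 0.33 in diet M, and -1.51 and -2.22 in diet S. All 4 diet arrays were thus positive, and the day arrays were positive in diet M and negative in diet S. How many of all rows did the same was not counted. The sign in diet M was not stable. The arrays of the other pairings gave -0.11 for it, and the fit without the second day array of diet M gave -0.07.

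In the fit, FAS differed between the diets by 0.91 ± 0.39 at day -14 (limma adjusted p = 0.736), with a 95% interval from -0.02 to 1.83. At day +7 the interval of the difference ran from 2.00 to 3.84 (limma adjusted p = 0.121), and FAS ranked 13 by p among all rows. The 2 direct arrays gave a mean of 2.79 for that difference and the path through the other 6 arrays gave 3.32. Between the days FAS was at 0.28 ± 0.39 in diet M and at -1.73 ± 0.39 in diet S (limma adjusted p = 0.999), and the interaction of diet and day was 2.02 ± 0.45 (limma adjusted p = 0.735).

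The array at 3.94 carried cow 8041 on its diet S side, as did the first day array of diet S. Without those 2 arrays FAS was at 2.42 ± 0.55 between the diets at day +7 (limma adjusted p = 0.515) and at -1.44 ± 0.55 between the days in diet S.

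CASP8, which carries the signal of FAS and other death receptors to the executioner caspases, stayed close to 0. It read -0.44 and 0.18 between the diets at day -14, and 0.16 and -0.46 at day +7. Its day arrays gave 0.28 and -0.18 in diet M, and 0.51 and 0.32 in diet S. The pairs of arrays had opposite signs in every pairing but the days in diet S, where the fit gave 0.33 ± 0.30. As deposited, before correction for spot brightness, they read -0.15 and 0.39 in diet S, and -0.06 and -0.38 in diet M. The 95% interval at day +7 was -0.95 to 0.47, so a difference between the diets of the size seen for FAS lay outside it.

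MCL1, a pro-survival protein with a short half-life on which neutrophil survival depends in mice, had the same sign as FAS on all 8 arrays. It read 0.87 and 0.65 between the diets at day -14, and 0.96 and 1.31 at day +7. The day arrays of diet M read 0.48 and 0.41, and those of diet S -0.53 and -1.08. In this average of 3 features the 2 arrays at day +7 lay close together, unlike those of FAS. The brightest MCL1 feature alone read 0.3 and 1.25 there, and 0.47 and -0.39 on the day arrays of diet M.

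The fit put MCL1 at 0.54 ± 0.29 between the diets at day -14 and at 1.36 ± 0.29 at day +7 (limma adjusted p = 0.127), with an interval from 0.66 to 2.05 for the second. The direct arrays gave a mean of 1.14 at day +7 and the indirect path 2.01, and at day -14 they gave 0.76 and -0.12. Between the days it was at 0.23 ± 0.29 in diet M and at -0.59 ± 0.29 in diet S, and the interaction was 0.81 ± 0.34 (limma adjusted p = 0.771). Without the 2 arrays of cow 8041 the day +7 difference was 1.48 ± 0.49.

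BCL2A1, the other pro-survival gene and one that NF-kB induces in activated leukocytes, ran the opposite way between the diets. It read -0.44 and -0.47 at day -14, and -0.05 and -0.42 at day +7. Between the days it read 0.49 and 0.29 in diet M, and 0.57 and 0.41 in diet S. All 4 diet arrays were negative and all 4 day arrays were positive, yet each fitted difference was small: -0.37 ± 0.26 and -0.31 ± 0.26 between the diets, and 0.47 ± 0.26 and 0.41 ± 0.26 between the days. The 95% interval of each included 0. As deposited, before correction for spot brightness, the first day array of diet S read -0.08 in place of 0.57, and the second array at day -14 read -0.16 in place of -0.47. The first array at day +7 read 0.02 in place of -0.05, so neither shared sign held before the correction. On that array the 2 features read 0.15 and -0.25 after it.

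BCL2L11, whose product BIM is the BH3-only protein that limits neutrophil life span in mice, had the least even replicates. Between the diets it read 0.81 and -0.16 at day -14, and 1.71 and 3.91 at day +7. Between the days it read 0.08 and 1.21 in diet M, and 0.25 and -1.21 in diet S. At day +7 both arrays were above every other value of the gene, and at day -14 and in diet S the 2 arrays had opposite signs. As deposited, they read 0.81 and 0.15 at day -14, and -0.40 and -1.10 in diet S. In diet M they read -0.27 and 1.13 as deposited, so the pairings with opposite signs changed with the correction for brightness.

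The fitted difference between the diets at day +7 had an interval from 1.24 to 3.71 (limma adjusted p = 0.125). The direct arrays gave a mean of 2.81 and the indirect path 1.46. The interaction was 1.80 ± 0.60 (limma adjusted p = 0.735), while the differences at day -14, in diet M and in diet S were 0.67 ± 0.52, 0.98 ± 0.52 and -0.82 ± 0.52. These 3 moved with single arrays: without the first day array of diet M they were 0.33 at day -14, 1.99 in diet M and -0.49 in diet S, without the second day array of diet M the diet M value was 0.49, and without the first day array of diet S the diet S value was -1.29. Without the arrays of cow 8041 the day +7 difference was 1.88 ± 0.58.

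BAX, an effector that forms pores in the mitochondrial membrane, had its lowest readings on the direct arrays of the diets before calving. It read -0.88 and -1.62 at day -14, and -0.06 and 0.08 at day +7. From day -14 to day +7 it read 0.73 and -0.30 in diet M, and 0.31 and -0.30 in diet S. The 2 arrays at day -14 lay below the other 6. The fit gave -0.99 ± 0.32 at day -14 (limma adjusted p = 0.736), a ratio of 1.98, and -0.25 ± 0.32 at day +7, with an interaction of 0.73 ± 0.37. The timing differed by path: the direct arrays gave means of -1.25 at day -14 and 0.01 at day +7, and the other arrays gave -0.20 and -1.04.

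BAK1, the second effector, was near 0 between the diets and positive on all day arrays. It read 0.37 and -0.21 between the diets at day -14, and 0.11 and -0.42 at day +7. Between the days it read 0.17 and 0.82 in diet M, and 0.33 and 0.89 in diet S. The fit gave 0.47 ± 0.30 for the days in diet M and 0.64 ± 0.30 in diet S (limma adjusted p = 0.999). As deposited, the first arrays of these 2 pairings read -0.05 and -0.19, so the shared sign of the 4 day arrays came with the correction for brightness.

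APAF1, the scaffold of the apoptosome, was positive on all 4 diet arrays and mixed between the days. It read 0.36 and 1.44 between the diets at day -14, and 0.06 and 0.93 at day +7. The days gave 0.82 and -0.13 in diet M, and 0.77 and -0.45 in diet S. The fitted differences between the diets were 0.75 ± 0.40 at day -14 and 0.64 ± 0.40 at day +7, and the interaction was -0.11 ± 0.46. The first of these rested on 1 array: without the second array at day -14 it was 0.05, and without the first it was 1.23.

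**Figure D1:**
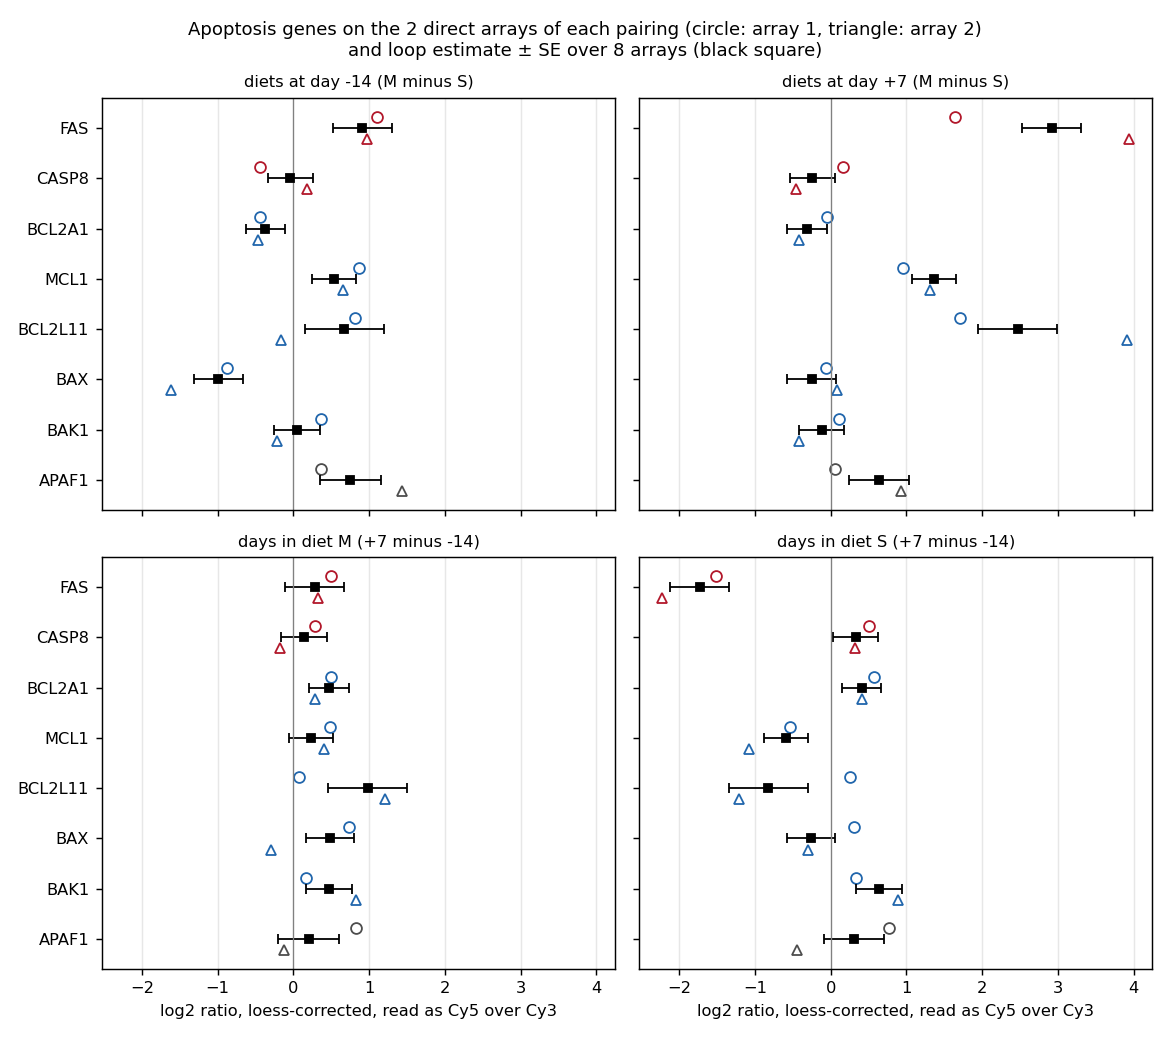
Log2 ratios of the 8 genes on the 2 direct arrays of each pairing (circles for array 1, triangles for array 2; red for FAS and CASP8, blue for the BCL2 family, grey for APAF1), with the fitted value over 8 arrays and its SE as black squares and bars. FAS, MCL1 and BCL2L11 stand to the right of 0 at day +7, and the 2 FAS arrays there read 1.64 and 3.94.

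Counted by comparison, 1 of the 8 genes (BAX) had an unadjusted p under 0.05 for the diets at day -14, against a background of 5.95% of all rows. For the diets at day +7 it was 3 of 8 (FAS, MCL1 and BCL2L11), 37.5% against a background of 23.1%. For the days in diet M it was 0 of 8 against 3.17%, and for the days in diet S it was 1 of 8 (FAS) against 4.82%. The interaction counted 3 of 8 (FAS, BCL2L11 and MCL1) against 6.43%. The comparisons share arrays and cows, so their counts are not independent of each other. FAS, MCL1 and BCL2L11 kept an unadjusted p under 0.05 at day +7 in all 16 alternative settings, although the count over all rows went to 1344 of 15155 without the arrays of cow 8041 and to 1638 of 15700 without the second day +7 array. In the interaction FAS kept it in 16 settings, BCL2L11 in 12 and MCL1 in 5, and BAX at day -14 kept it in 14.

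In the corrected values, the sign was the same on both direct arrays for 5 of the 8 genes in each of the 4 pairings. Over all rows with both values the share was 62% for the diets at day -14, 55.1% for the diets at day +7, 47.7% for the days in diet M and 43.2% for the days in diet S. FAS, MCL1 and BCL2A1 were among the 5 genes each time. The median over the 8 genes was 0.30 for the diets at day -14, 0.26 at day +7, 0.37 for the days in diet M, 0.02 for the days in diet S and 0.40 for the interaction, beside medians of -0.02 to 0.02 over all rows. In diet M all 8 genes were positive between the days in the reported fit, from 0.14 for CASP8 to 0.98 for BCL2L11. There 52.4% of all rows were positive and none of the 8 had an unadjusted p under 0.05. FAS, CASP8, MCL1 and APAF1 each turned negative there in at least 1 alternative setting.

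Fitted levels of the 4 groups, each relative to the mean of the 4, ordered FAS, MCL1 and BCL2L11 in the same way: diet M at day +7, diet M at day -14, diet S at day -14 and diet S at day +7. For FAS the levels were 1.10, 0.82, -0.09 and -1.82 (SE 0.25 each). The step between the 2 diet M groups was within the error, the step from diet M to diet S at day -14 had an interval that just reached 0, and the step down to diet S at day +7 was the difference of -1.73 given above. For MCL1 the levels were 0.59, 0.36, -0.18 and -0.77 (SE 0.19), and for BCL2L11 they were 1.28, 0.29, -0.37 and -1.20 (SE 0.34). No neighbours in these 2 orders differed beyond the 95% interval of their difference.

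BCL2A1 had its highest level in diet S at day +7, 0.37, and its lowest in diet M at day -14, -0.40 (SE 0.17). CASP8 had the same order over a narrower span, from 0.24 to -0.14 (SE 0.19). BAX was highest in diet S at day -14, 0.44, and lowest in diet M at day -14, -0.55 (SE 0.21). BAK1 was higher at day +7 in both diets, at 0.34 in S and 0.22 in M, than at day -14, at -0.30 and -0.25 (SE 0.19). APAF1 was higher in diet M on both days, at 0.45 and 0.25, than in diet S, at -0.20 and -0.50 (SE 0.26). For these 5 genes too, no neighbours in the order differed by more than 2 SE of their difference. Their extremes lay further apart. Diet M at day -14 minus diet S at day +7 was -0.78 ± 0.31 for BCL2A1 and -0.38 ± 0.35 for CASP8. The extremes of BAX were the diets at day -14 (-0.99 ± 0.32), and those of BAK1 the days in diet S (0.64 ± 0.30). For APAF1, diet M at day +7 minus diet S at day -14 was 0.95 ± 0.46.

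**Figure D2:**
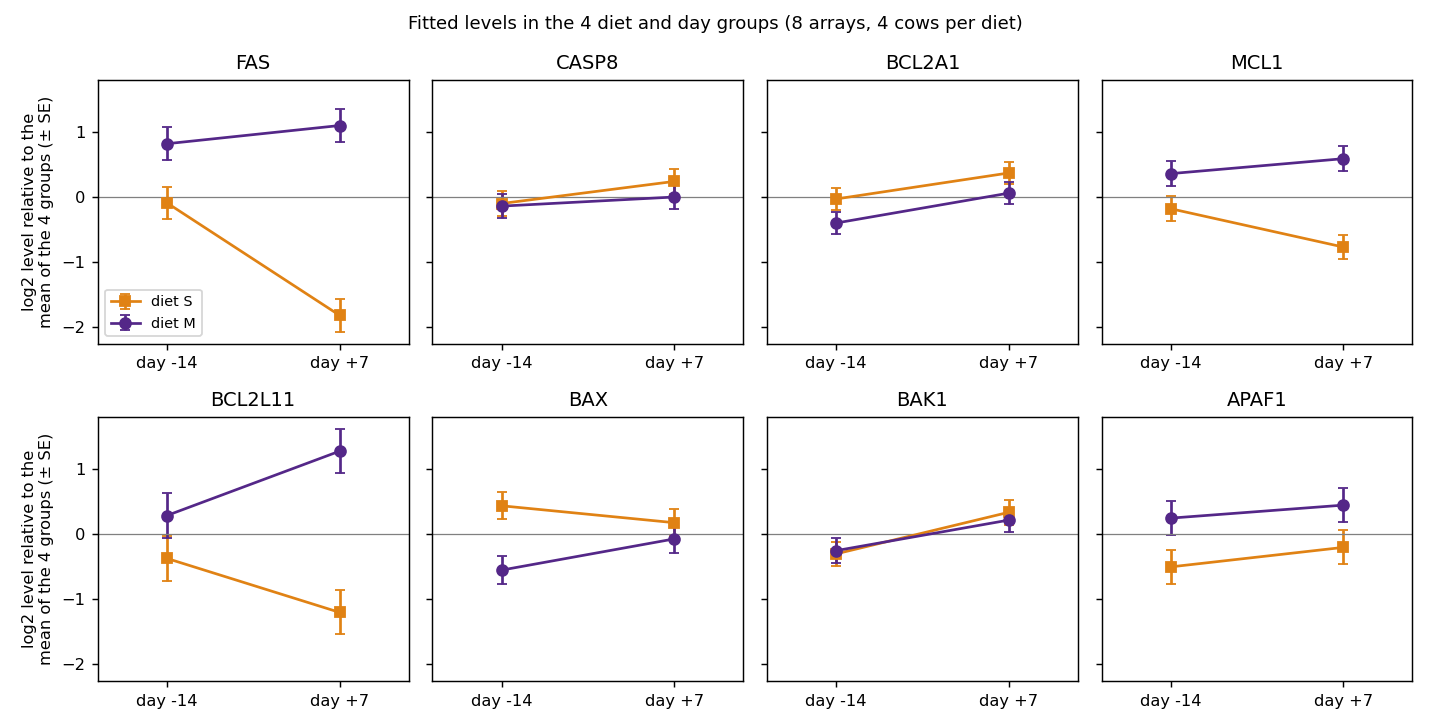
Fitted log2 level of each gene in the 4 groups, relative to the mean of the 4 groups, with SE bars (purple circles for diet M, orange squares for diet S, 8 arrays). For FAS, MCL1 and BCL2L11 the diet M line lies above that of diet S at day -14 and further above it at day +7. FAS is at 0.82 in diet M and -0.09 in diet S at day -14, and at 1.10 and -1.82 at day +7.

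Where a symbol had several features, they were compared before averaging. The 3 MCL1 features were at 1.65 ± 0.36, 1.5 ± 0.30 and 0.91 ± 0.28 between the diets at day +7, the last being the brightest by far, with a median brightness of 5950 against 268 and 352. All 3 had the same sign, so MCL1 did not rest on 1 spot, while FAS and BCL2L11 had 1 feature each, with median brightness of 659 and 259. The 4 CASP8 features ran from -0.46 to -0.10 and the 2 BCL2A1 features were at -0.37 and -0.26. The 2 APAF1 features differed, at 1.21 ± 0.52 and 0.08 ± 0.32, and both were dim (36.6 and 82.0, below the median of 87.3 over all features). The BAK1 features had opposite signs at day -14, 0.46 ± 0.37 for a dim one (25.2) and -0.36 ± 0.31 for a brighter one (598).

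**Figure D3:**
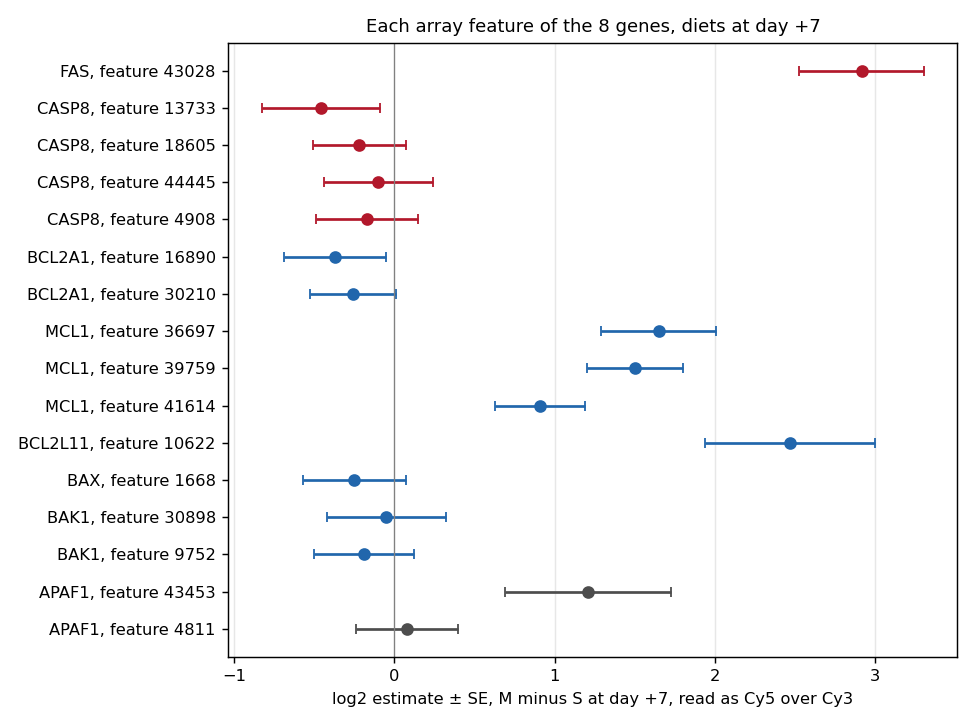
Difference between the diets at day +7 for each of the 16 features used, with SE bars (red for FAS and CASP8, blue for the BCL2 family, grey for APAF1; the number is the feature's number on the array). The 3 MCL1 features stand between 0.91 and 1.65, and the 2 APAF1 features stand apart, at 1.21 and 0.08.

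Over the 8 arrays, the likeness of 2 genes was taken as the cosine of their corrected log ratios, which is the same for both readings of the dye ratio. FAS and MCL1 had a cosine of 0.95, FAS and BCL2L11 0.88, and MCL1 and BCL2L11 0.82. FAS had a cosine of -0.65 with BCL2A1 and of -0.64 with CASP8, and CASP8 and BCL2A1 had 0.70. For FAS and BCL2L11 the second day +7 array holds the largest value and weighs most. Among 8573 symbols with values on all arrays, the nearest to FAS were USP32 (0.992), CD164 (0.987) and MARCKS (0.987), the nearest to MCL1 were XAF1 (0.987), LOC504861 (0.983) and AKAP13 (0.979), and the nearest to BCL2L11 were PREX1 (0.965), SIRPA (0.961) and CYSTM1 (0.959). Such patterns were common: 18.5% of all symbols had an absolute cosine above 0.8 with FAS, 18.5% with MCL1 and 19% with BCL2L11.

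The other genes had fewer near neighbours. With an absolute cosine above 0.8 there were 6.05% of symbols for APAF1, 1.75% for CASP8, 1.32% for BCL2A1, 0.63% for BAX and 0.268% for BAK1. The nearest were EPB41, RAB3D and AP2B1 for APAF1, KLHL20, ASCL4 and NSF for CASP8, and PLEKHG2, HOXC13 and H2AC14 for BCL2A1. For BAX they were FFAR3, CHAF1A and MTNR1B, and for BAK1 they were H2BC21, HTT and HAS3.

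Around the 8 genes, 29 of 45 other symbols of the death and survival pathway were measured, and none passed the test. Between the diets at day +7, 7 of the 29 were positive and 2 negative at an unadjusted p under 0.05, or 31% against the background of 23.1%. The 3 with the smallest p were NAIP, an inhibitor of apoptosis protein, at 1.84 ± 0.33, TNFRSF1A, the type 1 tumour necrosis factor receptor, at 2.10 ± 0.47, and IL1R1, the interleukin-1 receptor, at 2.24 ± 0.56 (limma adjusted p from 0.121 to 0.132). Among death receptors, ligands and adaptors, FAS included, 9 of 10 measured genes were positive, beside 50.4% of all rows. In this list 5 had an unadjusted p under 0.05, and the list median was 0.85 beside 0.01 over all rows. On the direct arrays the list's median was 0.18 on the first and 2.03 on the second, the array with the widest ratios. In that list CFLAR, which encodes the caspase-8 inhibitor FLIP, was at 1.52 ± 0.42, the kinase RIPK1 at 0.98 ± 0.31, and the adaptor FADD at 0.42 ± 0.39.

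Of 6 apoptosome and mitochondrial factors, 5 were negative at day +7, all but APAF1, with a median of -0.58: cytochrome c (CYCS) at -0.54 ± 0.29, the mitochondrial nuclease ENDOG at -1.19 ± 0.33 and AIFM1 at -0.90 ± 0.40. ENDOG alone of them had an unadjusted p under 0.05, 16.7% of the list against the background of 23.1%. On the direct arrays the list's median was -0.21 on the first and -0.79 on the second. Pro-survival BCL2 proteins were mixed, with MCL1 positive beside BCL2 itself at -0.74 ± 0.30. The 3 measured BH3-only genes were positive, but BID and BAD, at 0.23 ± 0.28 and 0.18 ± 0.29, were within their error and well under BCL2L11.

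**Figure D4:**
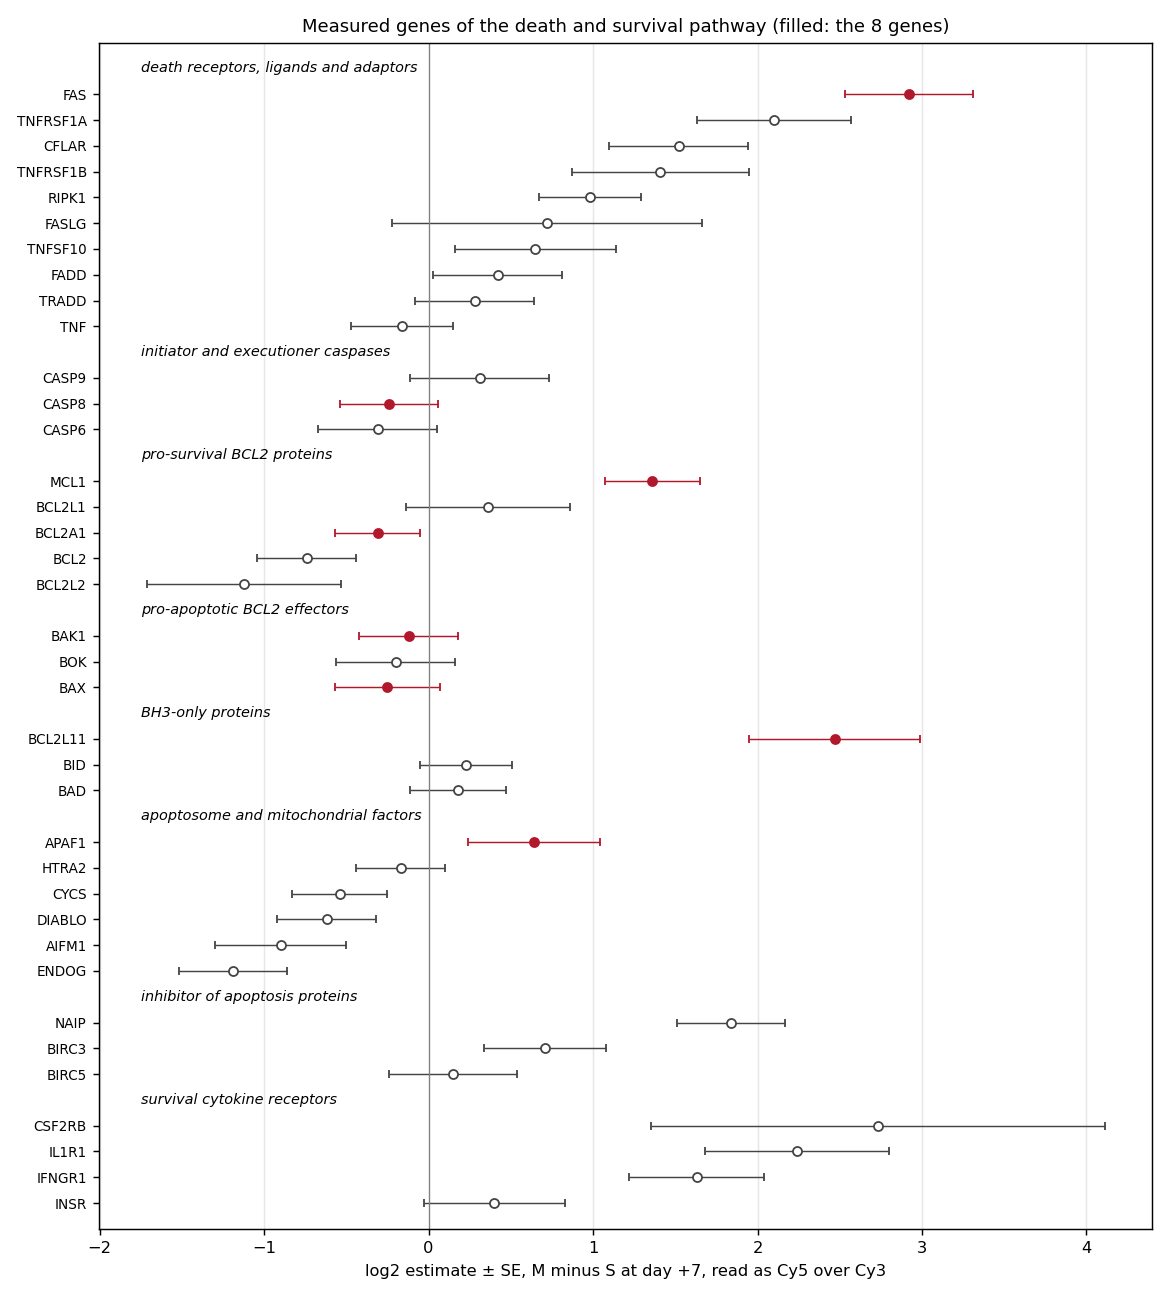
Difference between the diets at day +7 for every measured gene of the 8 pathway lists, with SE bars (filled red for the 8 genes, open for the other 29). FAS, at 2.92, heads the death receptor list, and APAF1, at 0.64, is the only positive gene among the apoptosome and mitochondrial factors.

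In the other comparisons few of the 29 genes stood out. Between the diets at day -14, 0 were positive and 2 negative at an unadjusted p under 0.05, or 6.9% against the background of 5.95%. They were BIRC5 (survivin, measured on 7 arrays) at -1.84 ± 0.31 and BCL2L2 at -1.53 ± 0.59, followed by NAIP at 0.73 ± 0.33. In diet M none was past that level, the nearest being BOK at -0.76 ± 0.36, TNFRSF1A at 0.90 ± 0.47 and IL1R1 at 0.90 ± 0.56. In diet S 2 were negative, or 6.9% against the background of 4.82%. They were BIRC5 at -1.71 ± 0.31 and NAIP at -0.86 ± 0.33, with CYCS next at 0.54 ± 0.29. The interaction counted 3, all positive, or 10.3% against the background of 6.43%: BIRC5 at 1.99 ± 0.38, NAIP at 1.11 ± 0.39 and TNFRSF1A at 1.4 ± 0.54. The signs of all rows at that level leaned the same way. There were 364 positive and 570 negative at day -14, 163 and 593 in diet S, and 851 and 158 in the interaction.

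Markers of leukocytes also moved between the diets at day +7, and their part in the values of FAS, MCL1 and BCL2L11 was not tested. The 9 measured neutrophil markers had a median of 0.11 on the first direct array and 1.69 on the second, and the 7 of 8 measured monocyte markers had -0.39 and 2.71. The 3 of 9 measured eosinophil and basophil markers had -0.76 and 6.56, the 11 of 11 T cell and NK markers 0.18 and 1.48, and the 4 of 6 B cell markers 1.67 and -2.63. Medians of the 2 of 6 measured platelet markers were -0.42 and 1.88, and those of the 3 of 6 red blood cell markers 0.25 and 0.92. Members of a list differed among themselves. At day +7 the neutrophil marker CXCR1, a chemokine receptor, was at 3.0 ± 0.58, while S100A8 was at 0.26 ± 0.80 and LTF at -0.99 ± 0.69. CD68, a lysosomal gene of monocytes and other phagocytes, was at 2.54 ± 0.47 at day +7 and at -1.31 ± 0.47 between the days in diet S, where 5 of the 7 monocyte markers were positive.

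The day +7 values of FAS, MCL1 and BCL2L11 kept their sign under all settings, while their size and adjusted p moved. Over 16 alternative settings FAS ran from 2.42 to 3.57, MCL1 from 0.91 to 1.54 and BCL2L11 from 1.72 to 2.81, all positive. Their adjusted p was under 0.05 in 1 setting, where features of a median brightness under 64 had been left out: 0.0364 for FAS, 0.042 for MCL1 and 0.0426 for BCL2L11 (limma, 9661 rows). That setting called 325 rows, 293 of them positive and 32 negative.

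**Figure D5:**
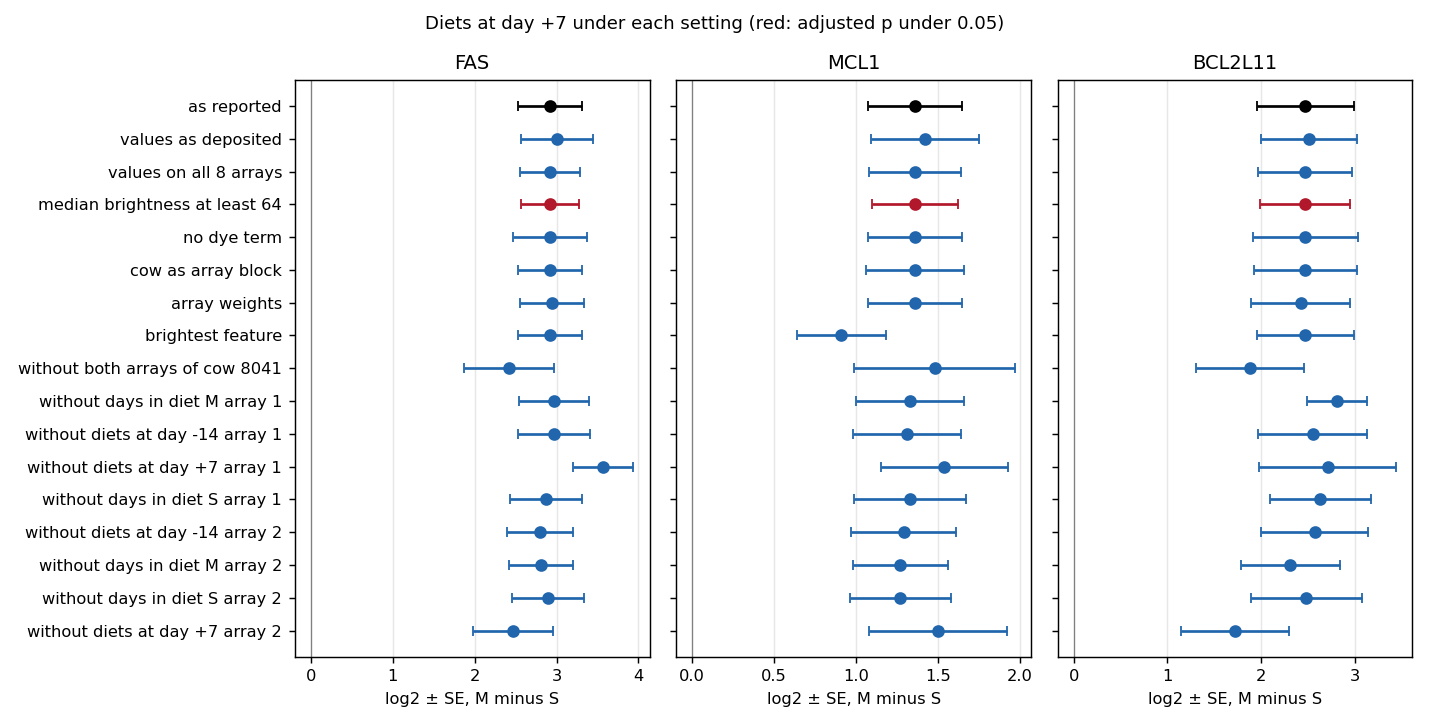
Difference between the diets at day +7 for FAS, MCL1 and BCL2L11 in the reported fit (black) and under 16 alternative settings, with SE bars (red where the adjusted p was under 0.05, blue elsewhere). All values are positive, from 2.42 to 3.57 for FAS, 0.91 to 1.54 for MCL1 and 1.72 to 2.81 for BCL2L11.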

How the data were processed

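Total RNA of PMNL (200 ng per sample, mean RNA integrity number 7.7 ± 0.2, per the labels' protocols) received 1 dye, Cy3 or Cy5, and was hybridised to Agilent bovine arrays. The values deposited by the authors are log2 ratios of the 2 channels, 43803 features on each of 8 arrays. How spots were scanned, background-corrected and filtered is not given in the sources used here. These ratios were not normalised: 97.8 to 98.5% were quotients of whole numbers up to 10000 (within 1e-09 in log2), and array medians ran from -0.37 to 0.40. The whole numbers gave each spot a brightness, a lower bound since ratios were reduced to lowest terms. A loess curve of log ratio against median feature brightness (span 0.4, degree 1, 4 iterations) was then subtracted from each array, which corrects for brightness and dye together and assumes that most genes do not differ. It was assumed that the same dye is on top in all 8 columns.

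Platform symbols were brought up to date with the RefSeq gene table, used for names only. Features with values on at least 6 arrays (24620) were averaged by symbol, giving 15700 rows, 9781 of them with a symbol. Genome coordinates and sequences were not used here. The loop model, with an intercept for dye, was run in limma 3.58.1 under R 4.3.3, leaving 4 residual degrees of freedom, with 3 more from limma's prior. Adjusted p-values are Benjamini-Hochberg over all rows of a comparison, two-sided, with a threshold of 0.05, and intervals are 95% intervals of the moderated fit. The fit was tested on simulated data.

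The 8 genes, the pathway and marker lists and the rules for naming were chosen with earlier results of these data known. All 8 genes were named, the 3 other pathway genes with the smallest p in each comparison, and the 3 symbols of highest cosine per gene; other pathway and marker genes were named after their values were seen. Alternatives were the values as deposited, features with values on all 8 arrays, a brightness minimum of 64, no dye term, the cow as replicate block, array weights, the brightest feature per symbol, both arrays of cow 8041 left out, and each array left out in turn.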

Additional observations from a re-analysis of the deposited data

Results flagged for a closer look

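FAS and MCL1 were the genes of the 8 whose day arrays were all positive in diet M and all negative in diet S. For MCL1 this held for the average of its features, while the brightest feature read 0.47 and -0.39 in diet M. How many of all rows split this way was not counted, so this flag has no background to be read against. FAS had means of 0.41 in diet M and -1.87 in diet S, a difference of 2.28, and the interaction in the fit over all arrays was 2.02 ± 0.45 (limma adjusted p = 0.735). MCL1 had means of 0.45 and -0.81, a difference of 1.25, with an interaction of 0.81 ± 0.34 (limma adjusted p = 0.771). For MCL1 the path through the other arrays did not carry these signs, at -0.43 between the days in diet M and 0.07 in diet S, and the diet arrays alone gave an interaction of 0.38. For FAS that path gave -0.11 and -1.34, and the diet arrays alone gave 1.75. In diet M each of these arrays compared 2 days of 1 cow, and in diet S it compared different cows, so that cow and day cannot be told apart there.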

How the results depend on the processing

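Over 16 settings (8 leaving out 1 array and 8 others), 29 of 40 gene and comparison values never changed sign. Among them were all values of BCL2L11 and BAX, and every value of FAS and MCL1 outside the days in diet M. At day +7, the count of called rows was 0 in the reported fit, 325 with a brightness minimum of 64 and 1 with features measured on all arrays, where fewer rows were tested (9661 and 13080). With the brightness minimum, the adjusted p was under 0.05 at day +7 for FAS (2.92), MCL1 (1.36) and BCL2L11 (2.47). Calls were 0 in all other settings and comparisons.

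Signs turned only for values within their error, and the cause was not tested. As deposited, CASP8 was at 0.05 at day -14 and at -0.18 in diet M, and APAF1 at -0.20 in diet M and 0 in diet S; in that setting the median of all rows stood at -0.31 in diet M, -0.25 in diet S and -0.10 in the interaction, beside 0.02, 0 and 0.01 in the reported fit. With the brightness minimum, BAK1 was at -0.36 at day -14 and 0.17 in the interaction, and APAF1 at -0.13 in diet M. With the brightest feature, BAK1 was at -0.36 and 0.17 in the same comparisons, and CASP8, MCL1 and APAF1 at -0.12, -0.10 and -0.13 in diet M. Without cow 8041 the CASP8 interaction was 0.01. Leaving out 1 array at a time, values at day -14 ran from -0.16 to 0.20 for CASP8 and -0.30 to 0.35 for BAK1. In diet M they ran from -0.07 to 0.50 for FAS, -0.03 to 0.43 for CASP8, -0.02 to 0.31 for MCL1 and -0.09 to 0.43 for APAF1. In the interaction they ran from -0.36 to 0 for CASP8, -0.07 to 0.15 for BCL2A1, -0.38 to 0.06 for BAK1 and -0.43 to 0.36 for APAF1.

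With the cow as replicate block (correlation 0.2), FAS stayed at 2.92 at day +7 and no call changed. Only 2 direct arrays stood behind each pairing, and the APAF1 features and 1 BAK1 feature were dim.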

Other observations

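Of the T cell and NK markers, 11 of 11 were positive in the fit between the diets at day -14 (median 0.66) and at day +7 (median 0.62). Between the days 10 of 11 were negative in both diets (medians -0.57 in M and -0.25 in S). The direct arrays of the days in diet S had medians of 0.26 and -1.10 for these markers. Those of the diets at day +7 had 0.18 and 1.48, with members from -1.47 (CD8A) to 1.04 (CD4) on the first. Of all rows, 48.2% were positive for the diets at day -14, 50.4% at day +7, 52.4% for the days in diet M and 49.5% in diet S. The 9 measured neutrophil markers were all positive between the days in diet M (median 0.54), and 5 of 9 were positive in diet S (median 0.07). On the direct arrays of diet S their medians were 1.63 and -1.17. The 7 measured monocyte markers were all positive between the diets on both days, with medians of 1.22 and 1.07. The 3 measured eosinophil and basophil markers (GATA2, CCR3 and ALOX15) were positive in the fit between the diets on both days, with medians of 1.52 and 2.71. Between the days they were negative, with medians of -1.30 in M and -2.49 in S. The direct diet arrays did not share a sign, with medians of 3.20 and -1.10 at day -14, and -0.76 and 6.56 at day +7. None of these genes passed the test.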
